A study of Mus musculus with 18 samples.

Results

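The methylated DNA of mouse heart tissue taken 6 h after coronary ligation was compared with that taken 10 min after it, 3 libraries against 3 of the 18 in the series. The 6 libraries were those labelled as 10 min or 6 h after myocardial infarction (MI), and their lists hold 261232 of the 862255 peaks of the series. The animals were 12-week-old male C57BL/6JR mice. In every animal of both groups the left anterior descending coronary artery had been tied under sodium pentobarbital, after intubation, and the animals were killed under isoflurane. The series also holds MI libraries at 1 h, 24 h and 72 h and libraries of sham-operated mice, 3 of each, used below only where named. The design gives 3 mice for each group, so the spread within a group is a spread between mice. The pentobarbital dose was 50 mg/kg in the design, whereas the labels give 50, 50 and 51 for the mice at 10 min and 55, 56 and 57 for those at 6 h. Over the 15 MI libraries the labelled dose climbs from 50 to 63, by 1 from nearly every library to the next, so whether these are doses given is not known. The labels call the material myocardial tissue and the cells cardiomyocytes, and describe no isolation of cells. Peak lists of DNA carry no RNA, so cell type markers could not check that label.

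MeDIP-seq reads the DNA fragments that bind an antibody to 5-methylcytosine, and a peak is a stretch of genome where more such fragments were found than around it. In mammalian tissue most CpG dinucleotides are methylated, except in CpG-rich promoters, and the antibody pulls down most where methylated CpG are dense. Methyl groups are placed by Dnmt1, Dnmt3a and Dnmt3b and oxidised by the Tet enzymes, which need oxygen. A peak that is called in one library and not in another may still be covered by reads in both, and a list gives no percentage of methylated molecules.

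Promoter windows touched by a peak in all 3 libraries of one time point and in none of the other were few. Among 21263 promoter windows of 300 bases (250 before a gene's start and 50 after it), 3 (0.0141%) had a peak in all 6 h and no 10 min library, namely those of Foxi1, Fam177b and Rnf186. In the opposite direction 2 (0.00941%) did, those of Olfr156, an olfactory receptor gene, and Tktl1, a transketolase-like gene. Shown here are the 4 windows in which the 3 peaks overlapped by more than a few bases, so that the methylatable letters under the peaks can be seen, with each CpG in capitals. They are RefSeq sequences of GRCm38.p6, the mm10 build, read 5′ to 3′ along the gene, at chr1:183275683-183275982 (minus strand) for Fam177b, chr4:138966869-138967168 (plus strand) for Rnf186, chr4:43821384-43821683 (minus strand) for Olfr156 and chrX:74177009-74177308 (plus strand) for Tktl1.
Fam177b: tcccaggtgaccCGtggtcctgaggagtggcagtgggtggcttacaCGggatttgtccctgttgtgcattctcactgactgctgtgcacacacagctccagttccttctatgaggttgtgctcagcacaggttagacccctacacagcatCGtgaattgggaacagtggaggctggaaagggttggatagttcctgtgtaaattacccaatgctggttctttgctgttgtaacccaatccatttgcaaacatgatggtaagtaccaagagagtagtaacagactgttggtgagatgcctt
Rnf186: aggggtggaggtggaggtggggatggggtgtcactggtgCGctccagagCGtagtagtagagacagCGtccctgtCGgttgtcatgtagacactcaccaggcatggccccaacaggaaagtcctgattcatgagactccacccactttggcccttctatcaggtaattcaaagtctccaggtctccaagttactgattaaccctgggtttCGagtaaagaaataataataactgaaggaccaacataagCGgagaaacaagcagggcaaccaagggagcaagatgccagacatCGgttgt
Olfr156: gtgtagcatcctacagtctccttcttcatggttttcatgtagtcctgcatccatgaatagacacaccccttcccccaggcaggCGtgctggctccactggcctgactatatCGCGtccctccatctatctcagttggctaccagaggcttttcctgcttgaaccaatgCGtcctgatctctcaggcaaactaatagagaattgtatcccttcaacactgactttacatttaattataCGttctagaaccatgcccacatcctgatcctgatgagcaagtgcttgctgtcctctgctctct
Tktl1: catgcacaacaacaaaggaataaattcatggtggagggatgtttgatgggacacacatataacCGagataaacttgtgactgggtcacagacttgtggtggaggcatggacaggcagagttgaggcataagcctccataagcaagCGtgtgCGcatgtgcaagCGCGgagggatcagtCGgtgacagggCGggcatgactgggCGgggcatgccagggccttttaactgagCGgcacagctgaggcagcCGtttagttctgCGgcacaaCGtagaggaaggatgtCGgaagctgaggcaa
The motif searched was CG, which reads the same on both strands. The Fam177b window holds 3 CpG, and 23.9% of all 21263 windows hold as many or fewer. Rnf186, a ubiquitin ligase gene, has 7 (38.5% of windows as many or fewer), Olfr156 has 5 (32.3%) and Tktl1 has 13 (51.1%). The Olfr156 and Tktl1 windows lay wholly under the peaks of all 3 libraries at 10 min. In the Rnf186 window 218 of the 300 bases, with 3 CpG, lay under all 3 peaks, and in the Fam177b window 74 bases, with 2 CpG. With equal numbers of peaks (the 34255 top-scoring of each list, the length of the shortest) the Fam177b window kept its peak in all 3 libraries at 6 h and still had none at 10 min. The excess for Rnf186 was then 2 libraries, for Olfr156 it was -2 and for Tktl1 it was -1. In the wider windows at gene starts used below, with all peaks, Rnf186 was among the 8 with a peak at 6 h alone. Fam177b and Foxi1 were not, so their separation was seen in the 300-base window and not in the wider one. The 300-base Fam177b window had a peak in none of the other 12 libraries of the series. The Tktl1 window had one in all 3 libraries at 1 h, at 24 h and at 72 h and in 1 of 3 sham libraries, so that among the MI groups its peak was missing at 6 h alone; this was noticed after the values were seen and was not tested.

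The lists of the 2 time points did not differ in size or make-up beyond the spread between mice. The lists at 10 min held 52259, 37084 and 44028 peaks, and those at 6 h held 43071, 50535 and 34255. The groups overlapped, and the mean was 44457 ± 7597 (SD, n = 3) at 10 min and 42620.3 ± 8149 at 6 h (exact permutation test, p = 0.7, adjusted over 4 list measures 0.933). Peaks covered 49.6 ± 5.82 Mb at 10 min and 49.3 ± 7.63 Mb at 6 h (exact p = 1). The mean peak width was 1127 ± 127 bases at 10 min and 1164 ± 73.7 bases at 6 h (exact p = 0.6). With 3 libraries against 3 there are 20 assignments, and no exact p can go below 0.1. Within each group the shortest list also had the widest peaks, 1271 bases in 10 min replicate 2 and 1246 bases in 6 h replicate 3.

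**Figure D1:**
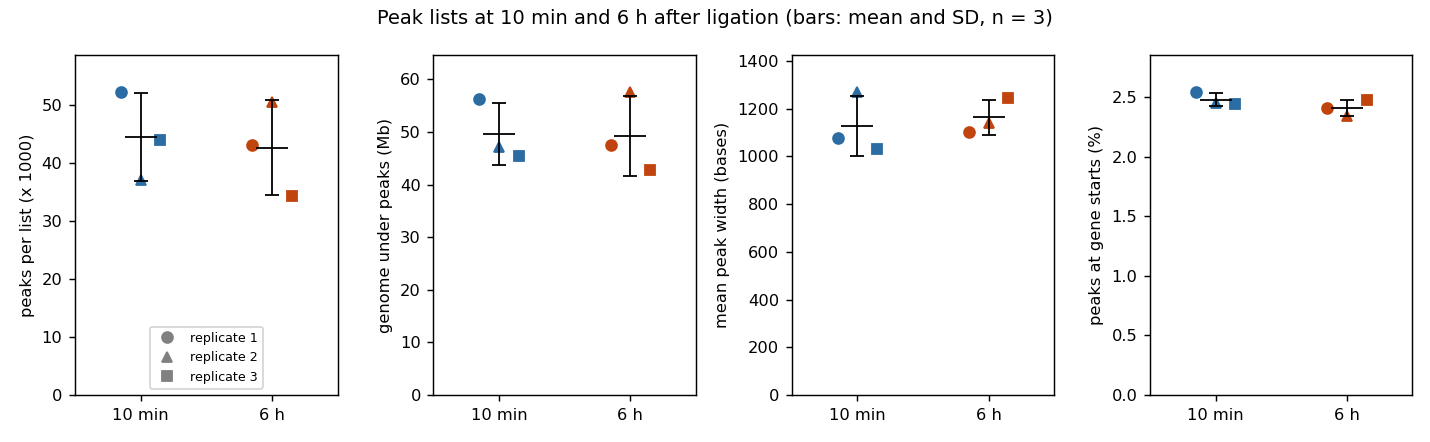
Peaks per list (in units of 1000), genome under peaks (Mb), mean peak width (bases) and share of peaks at gene starts (%), all from 0, for the 10 min and 6 h libraries; symbols are replicates 1 to 3 and bars the mean and SD (n = 3). The groups overlap in each panel, with peak numbers from 37084 to 52259 at 10 min and from 34255 to 50535 at 6 h.

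Libraries were about as alike across the time points as within them. Likeness was measured by the Jaccard index, the length that lies under peaks of both libraries as a part of the length under peaks of any of the pair. It was 0.355 ± 0.0135 for the 6 pairs of one time point and 0.354 ± 0.0123 for the 9 pairs that joined different times. The means differed by 0.00087 (one-sided exact permutation test, p = 0.4). The pair most alike joined the groups, 10 min replicate 1 and 6 h replicate 2, at 0.375, and so did the pair least alike, 10 min replicate 1 and 6 h replicate 3, at 0.336. Of the peaks of a list, 70.7% ± 6.68 at 6 h and 70.6% ± 5.22 at 10 min were also found in another library of the same group.

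Overlapping peaks of the 6 lists were merged into 100263 regions, whose median width was 1075 bases. Of these, 11409 had a peak in all 6 libraries and 40635 in a single library. A peak in 3 of 3 libraries at 6 h and in 0 of 3 at 10 min was found for 619 regions (0.617%), here called present at 6 h. The reverse held for 684 regions (0.682%), here called present at 10 min. A further 11125 regions had a peak in 3 libraries drawn from both groups. No region could pass a test: Fisher's exact test on 3 against 3 libraries cannot go below p = 0.1, so 0 regions were below an unadjusted p of 0.05 and the smallest Benjamini-Hochberg adjusted p was 1.

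**Figure D2:**
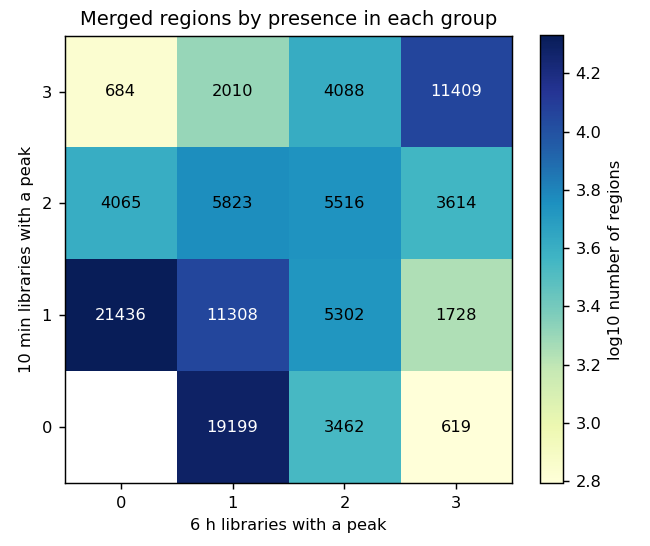
Number of merged regions by how many 6 h libraries (x axis, 0 to 3) and how many 10 min libraries (y axis, 0 to 3) had a peak there; colour is the log10 number. The corner fields hold the 619 regions present at 6 h (lower right) and the 684 present at 10 min (upper left), against 11409 present in all 6 libraries (upper right).

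The balance between the directions turned with the number of peaks used. With equal numbers of peaks, 590 of 80475 regions (0.733%) were present at 6 h and 531 (0.66%) at 10 min. Of the regions defined on all peaks, 318 present at 6 h and 285 present at 10 min separated the groups in both settings. The separating regions were much like the rest in place: 46.4% of those present at 6 h and 48.0% of those present at 10 min lay within protein-coding genes, against 48.1% of all regions. At gene starts lay 1.45% and 2.49% of them, against 2.55% of all regions. Their peaks were of middling strength, with median within-list score percentiles of 40.6 and 38.7. The median was 40.5 for regions with a peak in 3 libraries drawn from both groups and 40.0 for all regions. It was 75.5 for regions found in all 6 libraries.

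The strongest regions present at 6 h in both settings were led by one within Ppp1r12a. This gene encodes a regulatory subunit of myosin phosphatase, the enzyme that removes phosphate from myosin light chain. The region, chr10:108229937-108231002, had authors' peak scores of 111, 118 and 99.2 in the 3 libraries at 6 h, with no peak at 10 min. Among the other groups it had a peak in 2 of 3 sham libraries, 2 of 3 at 1 h and all 3 at 24 h and at 72 h. The next, chr13:84243154-84243738 within Tmem161b, a membrane protein gene, scored 97.5, 158 and 96.0, and had a peak in 1 of 3 sham libraries, 0 of 3 at 1 h and 1 of 3 at 24 h and at 72 h. A region 38 bases from Immp1l, which encodes a protease subunit of the inner mitochondrial membrane, lay at chr2:105965597-105966633 and scored 156, 89.4 and 96.0. It had a peak in all 3 libraries of the sham, 1 h and 24 h groups and in 2 of 3 at 72 h. The 10 min group was thus the only one with no peak there. The remaining ones were chr4:15458156-15459211 (nearest gene Gm24317, 74901 bases away), chr8:43005494-43007233 (nearest gene Triml1, 122572 bases away) and a region on chromosome 18 within the non-coding gene Gm41707. The Gm24317 region was found in 2 of 3 libraries at 6 h when peaks had to cover 50% of it.

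The strongest regions present at 10 min were led by chr8:38125393-38126062 within Sgcz, which encodes zeta-sarcoglycan of the dystrophin-associated membrane complex of muscle. Its scores at 10 min were 108, 129 and 91.1, and no library at 6 h had a peak there. In the other groups it had a peak in 2 of 3 sham libraries, 2 at 1 h, 1 at 24 h and 2 at 72 h. A region within the zinc finger gene Zfp93, chr7:24275140-24276827, scored 121, 81.0 and 103. It had a peak in 2 of 3 sham libraries and 1 of 3 at each of 1 h, 24 h and 72 h. A region within the non-coding gene Gm39075, chr7:117277159-117278694, scored 145, 80.3 and 90.7. It was found in all 3 libraries of the sham, 1 h and 24 h groups and in 2 of 3 at 72 h. The others were chr6:126571859-126572517 within the non-coding gene Gm33449, chr6:93574649-93575412 (nearest gene Gm22312) and chr6:50738212-50739627 (nearest gene Gm3017). The Gm22312 region had a difference of -2 libraries when a score of at least 75 was required. None of the regions named here had peaks in every later MI library and in no sham library, and exon or intron position was not analysed here.

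At the level of genes, a window of the gene and 2000 bases on each side was under a peak in each of the libraries at 6 h and in no library at 10 min for 72 of 21900 protein-coding genes (0.329%), and the reverse held for 108 (0.493%). With equal numbers of peaks the counts were 105 (0.479%) and 96 (0.438%), so the direction with more genes turned here too. In both settings 39 genes were present at 6 h and 47 at 10 min. Fisher's exact test called 0 of them, with 0 below an unadjusted p of 0.05.

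The genes named here come from the 39 present at 6 h and the 47 present at 10 min in both settings. They were picked for known roles in heart muscle or in stress and immune signalling after their values were seen. Whether such roles are more common among separating genes than among all genes was not tested. Present at 6 h were Mef2a, a transcription factor of muscle genes, with scores of 96.0, 63.7 and 52.3 for its strongest peaks, and Mylk3, the cardiac myosin light chain kinase, with 57.7, 109 and 60.0. Homer1, a scaffold protein, had scores of 81.1, 88.6 and 79.8. Present at 10 min were Cav3, caveolin of muscle membranes (82.9, 52.8 and 71.6), Irf8, a transcription factor of myeloid cells (74.9, 58.3 and 61.8), and Traf2, an adaptor of tumour necrosis factor receptors (69.3, 117 and 65.0). The Cav3 peaks also fall in the window of Oxtr, the oxytocin receptor gene. Lats1, a Hippo pathway kinase, had scores of 64.5, 52.6 and 77.3. Many of these scores lie near the lowest score of 50 at which the lists begin. For Mylk3, Traf2 and Lats1 the strongest peaks of the 3 libraries lay in 2 different regions, and for the other genes named here in 1. In the 3 sham libraries, which had no ligation, a peak was found in 3 windows for Mef2a, 3 for Homer1, 3 for Cav3, 3 for Traf2 and 3 for Lats1, and in 2 for Mylk3 and 2 for Irf8.

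A pair of separating regions of one direction was the most that any gene held. Of 305 genes with a region present at 6 h, 8 had 2, and of 351 genes with a region present at 10 min, 9 did. At 6 h these included Prkcb, a protein kinase C gene, with regions at chr7:122435812-122437118 (scores 92.1, 85.3 and 80.5) and chr7:122540780-122543093 (58.1, 104 and 55.0). Both Prkcb regions also separated with equal numbers of peaks, and both had peaks in all 3 sham libraries. Runx2, a transcription factor of bone formation, had chr17:44758693-44759993 (83.5, 61.6 and 58.1) and chr17:44529473-44530563 (63.2, 56.2 and 56.4), of which neither separated with equal numbers. Cmip, Myo5b, Slc10a7, Stpg2, Tenm3 and Tmem255b also had 2, and Stpg2 held 1 region present at 10 min as well. At 10 min, Cdh23, a cadherin gene, had chr10:60655319-60656385 (77.0, 127 and 61.3) and chr10:60630692-60632619 (70.5, 58.7 and 64.0), which both separated with equal numbers. Kcnab1, which encodes a beta subunit of voltage-gated potassium channels, had chr3:64981397-64982093 (98.9, 85.0 and 101) and chr3:65322153-65323175 (62.5, 56.0 and 67.5), of which the first separated with equal numbers. Eml1, Fras1, Klhdc10, Meaf6, Msi2, Rapgef4 and Wdr7 also had 2. Over all 6 lists some of these genes held many regions, 20 for Prkcb, 26 for Cdh23 and 67 for Tenm3. Others held few, 4 for Tmem255b, 4 for Klhdc10 and 6 for Meaf6, and the part of gene length in the pairs was not tested.

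Starts of genes, taken here as the window from 2000 bases before to 500 after, separated the groups for few genes. A peak at 6 h alone was found for 8 of 17492 starts (0.0457%) and at 10 min alone for 17 (0.0972%). With equal numbers of peaks these were 10 (0.0572%) and 13 (0.0743%), of which 6 and 7 were shared with the counts on all peaks. The share of peaks at gene starts was 2.41% ± 0.0668 at 6 h and 2.48% ± 0.0564 at 10 min (exact permutation test, p = 0.3, n = 3). At 6 h the strongest was Rbm48, an RNA-binding protein gene, with scores of 103, 84.4 and 101 at chr5:3597586-3598274, 1039 bases upstream of the start. It kept its 3 libraries with equal numbers of peaks and at a score of at least 75. Sipa1, which encodes a GTPase-activating protein for Rap, had a region at chr19:5665505-5668033, 1798 bases upstream, with scores of 73.4, 96.2 and 69.6. Xrcc1, a scaffold of DNA single-strand break repair, had one at chr7:24544290-24545514, 1185 bases upstream, with scores of 63.2, 71.3 and 62.0. The same region also fell in the gene window of Pinlyp, 491 bases downstream of the Pinlyp start. Gm21304, Olfml2a and Ttc41 completed the 6, and Ttc41 fell to 2 libraries with equal numbers of peaks.

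At 10 min the strongest gene start was Tlk2, which encodes a kinase of chromatin assembly, with scores of 128, 84.1 and 71.0 at chr11:105177174-105178758, 49 bases upstream. Within the start window of Actl7b, an actin-like gene of the testis, the strongest peaks scored 84.5, 84.7 and 75.4 and lay in 2 regions. Actl7b was the one of the 6 that kept all 3 libraries at a score of at least 75. Lrfn3, a synaptic adhesion gene, had scores of 75.2, 69.2 and 95.4 at 1112 bases upstream. Ccnj, a cyclin gene, had 81.5, 75.3 and 60.4 at 1315 bases upstream. Smco2 and the vomeronasal receptor gene Vmn2r11 were the others, and all 6 also separated with equal numbers of peaks. Fisher's exact test called 0 gene starts at an unadjusted p of 0.05.

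Peaks at promoters followed CpG content in the same way at both times. Of windows with 6 to 10 CpG, 4.69% ± 0.385 had a peak at 6 h and 4.68% ± 0.713 at 10 min (n = 3). Of windows with 21 to 67 CpG, 0.252% ± 0.0873 and 0.270% ± 0.0214 did. Windows with 0 to 2 CpG gave 0.998% ± 0.177 at 6 h and 1.10% ± 0.221 at 10 min. In the 5 classes of CpG content the exact permutation p for 6 h against 10 min ran from 0.6 to 1.

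**Figure D3:**
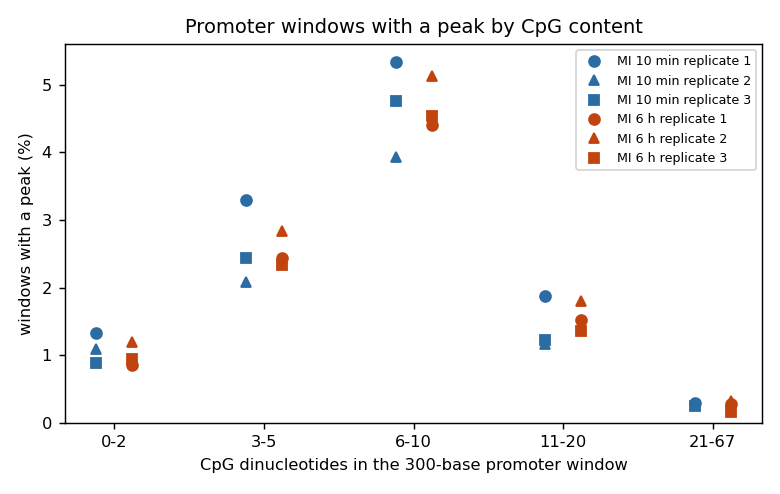
Share of 300-base promoter windows with a peak (%, y axis from 0) in 5 classes of CpG number (x axis), with each of the 6 libraries as a point. Windows with 6 to 10 CpG have the highest share and those with 21 to 67 the lowest in all 6 libraries, and the points of the 2 times overlap in each class.

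Genes of ischemia, contraction and inflammation were followed through 11 lists, all of whose members were found in the gene table. Of these 252 genes 3 separated the groups: Eno1 at 6 h (0.397%, beside 0.329% of all genes), and Tie1 and Myl7 at 10 min (0.794%, beside 0.493%). Counts this small are near the background. Eno1, the glycolytic enzyme enolase, had 1427, 927 and 1136 bases under peaks at 6 h and none at 10 min, and did so with equal numbers of peaks as well. Its strongest peaks scored 60.1, 88.3 and 52.2 and lay in 2 different regions. Tie1, an endothelial receptor, had 877, 949 and 736 bases under peaks at 10 min and none at 6 h, but with equal numbers of peaks 1 of 3 libraries at 10 min had a peak. Myl7, the atrial myosin light chain, had 143, 163 and 1132 bases at 10 min, all outside the gene span itself, and also fell to 1 library.

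Among 26 genes of the hypoxia response and glycolysis, 55.1% ± 8.01 had a peak at 6 h and 43.6% ± 5.88 at 10 min, beside 44.6% ± 5.06 and 45.8% ± 4.69 of all protein-coding genes. By library these were 57.7%, 61.5% and 46.2% at 6 h and 50.0%, 38.5% and 42.3% at 10 min, so the groups overlapped. With equal numbers of peaks the shares of this list were 46.2% ± 7.69 and 34.6% ± 7.69, beside 39.2% and 39.4% of all protein-coding genes. By library they were then 53.8%, 38.5% and 46.2% at 6 h and 42.3%, 34.6% and 26.9% at 10 min, again with overlap. For 24 genes of acute inflammation the shares were 34.7% ± 8.67 at 6 h and 48.6% ± 10.5 at 10 min, and by library 41.7%, 37.5% and 25.0% against 58.3%, 37.5% and 50.0%. With equal numbers of peaks the shares for acute inflammation became 33.3% ± 7.22 and 37.5% ± 7.22. The 22 genes of the DNA methylation machinery gave 43.9% ± 2.62 and 53.0% ± 6.94, and 40.9% ± 4.55 and 42.4% ± 10.5 with equal numbers. Contraction genes had 48.5% at both times. Of the 24 genes of calcium cycling and ion channels, 14 had a peak in all 6 libraries and 22 in at least 1, beside 23.9% and 66.7% of all genes. Their windows are long, with a median of 109 kb against 21.1 kb for all genes. Immediate-early genes had 30.3% ± 5.25 and 21.2% ± 9.46. Markers of leukocytes had 27.3% at 6 h and 30.3% at 10 min, endothelial markers 50.0% and 53.7%, and fibroblast and matrix genes 62.5% and 56.9%. Genes of cell death had 41.7% and 40.3%, and genes of fatty acid oxidation and mitochondria 52.8% and 50.0%.

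The bases under peaks in each gene window were also compared by a model over all genes (limma with trend, on the log2 of bases scaled to the list total plus 500). Of 6772 genes with at least 1000 bases on average, 0 (0.0%) passed an adjusted p of 0.05, and 282 (4.16%) had an unadjusted p under 0.05, 130 with more and 152 with fewer bases at 6 h. The smallest adjusted p was 0.970. The lowest p was that of Fgf12, which encodes a fibroblast growth factor homologous protein that binds sodium channels. Its window had 4274, 2591 and 2836 bases under peaks at 10 min and 7823, 11451 and 9036 at 6 h, without overlap (limma log2 difference 1.44 ± 0.24 SE, adjusted p = 0.970). Adam33, a metalloprotease gene, had 780, 0 and 0 bases at 10 min and 2477, 2525 and 2834 at 6 h. Rmdn2, Slc38a10 and Tekt3 followed, with log2 differences of 1.55, 1.36 and 1.09.

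In the other direction, Adamts3, a procollagen-processing protease gene, had 4821, 4948 and 4432 bases at 10 min and 1633, 941 and 1442 at 6 h (limma log2 difference -1.51 ± 0.31 SE, adjusted p = 0.970). Shb, an adaptor protein gene, had 4319, 2920 and 5363 bases at 10 min against 0, 1875 and 0 at 6 h. Lingo1 and Specc1 had log2 differences of -1.26 and -0.97.

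**Figure D4:**
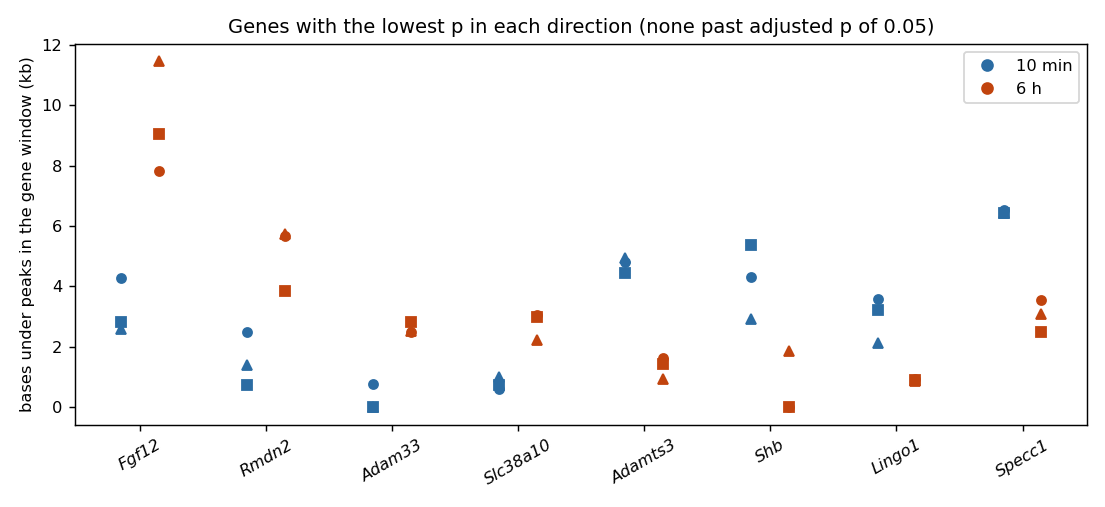
Bases under peaks (kb, y axis) in the windows of 8 genes, the 4 with the lowest p by limma in each direction, with each library as a point (blue 10 min, red 6 h; symbols are replicates 1 to 3). The groups do not overlap for these genes, chosen for the lowest p, and none passed adjustment over 6772 genes (smallest adjusted p 0.970).

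Of the 83 listed genes tested by limma, 7 (8.43%) had an unadjusted p under 0.05, beside 4.16% of all genes tested, and none passed adjustment. Pfkl, the liver-type phosphofructokinase of glycolysis, had 0, 1121 and 1059 bases under peaks at 10 min and 1411, 3620 and 3419 at 6 h (log2 difference 1.51 ± 0.56 SE). Kcnd2, a potassium channel gene, had 1679, 1964 and 3857 bases at 10 min and 4691, 6267 and 4207 at 6 h. The groups did not overlap for Pfkl or Kcnd2. Ttn, the sarcomere spring titin, had 14812, 8951 and 13167 bases against 9037, 7570 and 7380, with overlap. Bid, Opa1 and Pdgfra had log2 differences of -1.93, -1.02 and -0.60. Of the 10 hypoxia and glycolysis genes tested, 8 had a positive log2 difference, with a median of 0.51, beside 3421 of all 6772 genes and a median of 0.0048. Among these 8, Pfkl, Gpi1, Pdk1, Hk2 and Bnip3 each had 0 bases under peaks in a 10 min library. Of 7 acute inflammation genes tested, 6 were positive, with a median of 0.07, whereas the share of that list with a peak was lower at 6 h. Of 15 calcium cycling and channel genes 10 were positive (median 0.17), and the medians of the lists of contraction, fatty acid oxidation and cell death genes were -0.05, -0.10 and -0.16.

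Peaks were also counted in windows of 1 Mb along the chromosomes. Of 2437 windows tested by limma on peaks per 10000 of the list, 0 (0.0%) passed an adjusted p of 0.05 (smallest 0.471), and 160 (6.57%) had an unadjusted p under 0.05, 92 with more peaks at 6 h and 68 with fewer. The window of Cdh2, the N-cadherin of cardiomyocyte junctions, on chromosome 18 had 9, 5 and 12 peaks at 10 min and 15, 15 and 14 at 6 h (log2 difference 0.75 ± 0.20 SE). That of Foxp2 and Mdfic on chromosome 6 had 6, 8 and 6 against 11, 17 and 10. The other 3 of the 5 leading windows with more peaks at 6 h, on chromosomes 8, 12 and 12, held the midpoint of 0 protein-coding genes each, although a longer gene such as Tenm3 reaches into the one on chromosome 8. Of the windows with fewer peaks at 6 h, one on chromosome 5 from 100000001 to 101000000, with the midpoints of 13 genes including the heparanase gene Hpse, had 50, 31 and 40 peaks at 10 min and 32, 32 and 19 at 6 h, with overlap. One on chromosome 11 from 70000001 to 71000000, with the midpoints of 45 genes, had 33, 26 and 27 against 23, 21 and 13. The window of Xylt1 on chromosome 7 had 16, 12 and 14 against 5, 11 and 8.

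After these windows were seen, the 2437 windows were divided into 3 parts by the number of genes with their midpoint inside. In the 812 windows with the fewest genes (0 to 3), 541 had a log2 difference above 0 and 271 below, with a median of 0.09. In the 813 with the most genes (9 to 67), 340 were above 0 and 473 below, with a median of -0.03. The gene-rich windows held 43.2%, 40.7% and 42.3% of the peaks of the lists at 10 min and 41.1%, 40.9% and 40.3% at 6 h. The groups overlapped through 10 min replicate 2, and the difference of -1.29 percentage points did not pass (exact permutation p = 0.3, n = 3). Without 10 min replicate 2 it was -1.99 points (exact permutation p = 0.1, the smallest that 2 against 3 libraries can give), and without 10 min replicate 1 it was -0.708 points (exact permutation p = 0.5).

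The regions that separated 6 h from 10 min were looked up in the 12 libraries that had not chosen them. In sham libraries 51.0% ± 4.09 of the regions present at 6 h and 51.5% ± 11.4 of those present at 10 min had a peak (n = 3). At 1 h these were 42.9% ± 3.01 and 44.7% ± 1.77, at 24 h 44.4% ± 1.78 and 47.2% ± 6.14, and at 72 h 51.4% ± 2.99 and 51.3% ± 9.72. The share for regions present at 6 h minus that for regions present at 10 min was compared between groups. It was -1.32 ± 8.69 percentage points over the 6 libraries at 24 h and 72 h and -0.51 ± 12.3 in the 3 sham libraries (exact permutation test, p = 0.881). For 1 h against sham the exact permutation p was 1. The 12 libraries spread from -14.4 to 10.8 points, so a difference of a few points between groups was not detectable. Replicate 2 was the lowest library of the sham, 24 h and 72 h groups, at -14.4, -9.52 and -13.1 points. The same 3 libraries had peaks in the largest share of all 100263 regions within their groups, 48.9%, 43.1% and 48.7%; the part of this in the differences was not tested. With equal numbers of peaks they were still the lowest of their groups, at -5.86, -7.18 and -12.4 points, and the exact permutation p was 0.821 for 24 h and 72 h against sham and 0.4 for 1 h against sham.

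**Figure D5:**
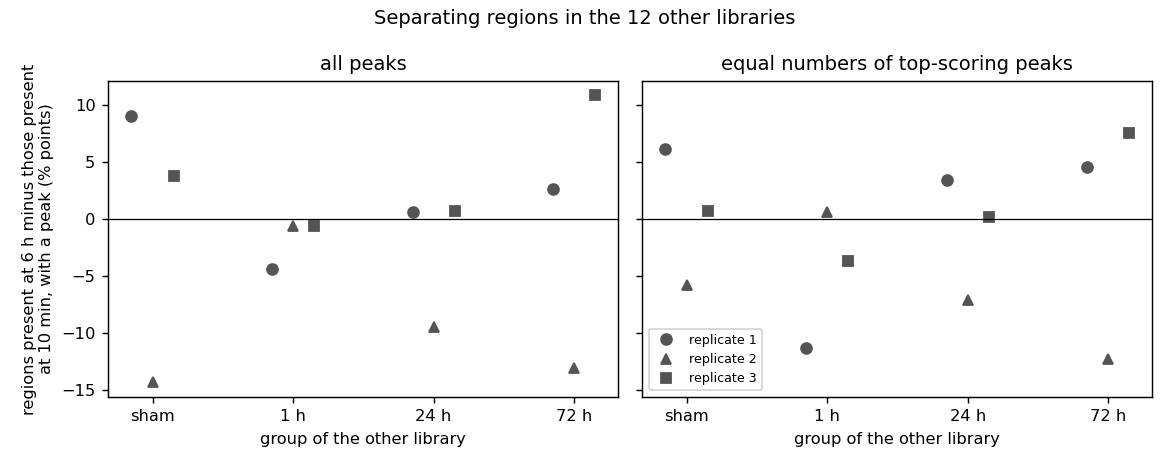
Percentage of regions present at 6 h with a peak minus that of regions present at 10 min (percentage points, y axis) in each of the 12 other libraries, by group (x axis), with all peaks (left) and equal numbers of top-scoring peaks (right); symbols are replicates 1 to 3. Each of the sham, 24 h and 72 h groups has libraries on both sides of 0, with sham replicate 2 at -14.4 and 72 h replicate 3 at 10.8 with all peaks.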

How the data were processed

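Sequencing was paired-end after immunoprecipitation of methylated DNA sheared to short fragments, per the labels' protocols. Bowtie2, MACS2 and the mm10 build are named, without versions, in the submitters' processing notes; options and any input library are not given in the sources used here. The authors deposited 1 peak list per library with a score for each peak, whose scale is not stated and whose lowest value is 50 in each list; the score was used to rank and filter peaks within a list. Read depth is unknown, so no counting interval is given.

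Positions were checked against GRCm38.p6 gene starts: 3.28% of windows at starts had a peak, against 6.52% to 6.99% of windows 5000 to 10000 bases away. Starts come from the RefSeq promoter table, which covers 17492 of the 21900 genes used. Peaks were merged at 1 base of overlap. Tests were exact permutation tests over libraries, Fisher's exact test, and limma 3.58.1 (R 4.3.3) with Benjamini-Hochberg adjustment, tested on simulated data; other steps used Python 3.11.15 and scipy 1.17.1. Named items were the 6 strongest separating regions and gene starts per direction by within-list score rank, the genes with 2 separating regions (the rule's 5 per direction were tied, so all are named), listed genes that separated, and the 5 lowest limma p-values per direction. The 6 regions were ranked among those that also separated with equal numbers of peaks. Outside these rules, separating promoter windows, genes picked for their roles and listed genes with low unadjusted limma p were also named. The comparison, the gene lists and the rules were chosen with earlier results of these data known. Same-numbered libraries of the 10 min and 6 h groups did not deviate together, so no pairing was used there; pairing was not checked in the other 12 libraries. Some items that the rule selects are not reported here.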

Additional observations from a re-analysis of the deposited data

How the results depend on the processing

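None of these results passed a test in any setting run, and the counts moved with the libraries and peaks used. The difference in covered length was -0.332 Mb with all peaks and 1.25 Mb with equal numbers of peaks. Leaving out 1 library at a time gave differences in peak number from -5794 to 2346, in covered length from -4.51 to 2.99 Mb, in mean width from -10.3 to 109 bases and in Jaccard index from -0.00432 to 0.00683. Separating counts rise when a group has 2 libraries by construction: regions present at 6 h ran from 1096 (without 10 min replicate 2) to 2275 (without 6 h replicate 3) and at 10 min from 1064 (without 6 h replicate 3) to 2788 (without 10 min replicate 2), genes from 125 to 236 and from 181 to 301, and gene starts from 19 to 51 and from 30 to 70. A score of at least 75 left 212 regions at 6 h, 300 at 10 min and 6 gene starts at 10 min. Without 1 sham replicate, the difference for 24 h and 72 h against sham ran from -7.74 to 3.98 points and for 1 h from -8.29 to 3.43. Of 27 named regions, gene starts and genes, 24 still separated with equal numbers of peaks and 13 at a score of at least 75. The 12 regions among the 27 had been chosen to separate with equal numbers, so their part of the 24 was fixed in advance. Over all separating regions, 318 of 619 present at 6 h and 285 of 684 present at 10 min did so. The replicate block changed no call: correlations of same-numbered libraries over 1 Mb windows ran from -0.065 to 0.032, and with the block limma called 0 windows (smallest adjusted p 0.237) and 0 genes (0.975). The check of gene density was added after seeing the data; with equal numbers of peaks or with any library left out its direction was the same. Peak lists without read counts cannot tell a lost peak from one just under the calling threshold.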
